A study of Mus musculus with 42 samples.

Results

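A set of 47 genes of fatty acid oxidation and its control by the nuclear receptors called PPARs was followed through 42 mouse RNA-seq libraries. The members were named in a list, and all 47 were found among the 49585 genes of the count table by matching Ensembl identifiers to GENCODE M21 symbols. They fall into 6 roles. Of the 47 genes, 10 activate fatty acids or carry them into mitochondria, 9 encode acyl-CoA dehydrogenases and electron transfer proteins, 5 act in the later steps of the mitochondrial cycle, 3 are isomerases and reductases for unsaturated chains, 11 belong to peroxisomal oxidation and 9 to PPAR-controlled lipid handling.

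The mice were 4 weeks old, on a mixed background of equal parts BALB/C and C57BL6, in a series concerned with p53 dimers. The 4 genotypes were p53-null (called Null), p53 +/- (Het), p53 AD/- (AD) and p53 RP/- (RP); the labels do not spell out the AD and RP alleles. A Het, AD or RP mouse thus had a single p53 allele opposite a missing one. Thymus was taken 4 hours after irradiation from 4 mice of each genotype, and without irradiation (basal) from 2 Null, 3 Het and 3 AD mice. Basal intestine, liver and pancreas came from 3 AD and 3 Null mice each, and the basal organs of a genotype shared mice. RP libraries were all irradiated, irradiated and basal thymus came from different mice, and the sex of the mice, the radiation dose and the time of day are not in the labels.

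Fatty acids are joined to coenzyme A by acyl-CoA synthetases, carried into mitochondria as carnitine esters, and shortened in cycles of dehydrogenation, hydration, renewed dehydrogenation and thiolysis, while very long and branched chains are first shortened in peroxisomes. PPAR alpha, most active in liver and during fasting, binds DNA with the retinoid X receptor at paired copies of a short half-site with 1 base between them, an arrangement called DR1, and many of these genes are its textbook targets. The thymus consists mostly of developing T cells, and fat tissue, including brown fat, which burns fatty acids to make heat, lies next to it in the chest.

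Libraries held 19861977 to 34772519 counts. Levels are in CPM, a gene's counts relative to the size of its library, with sizes scaled by the TMM method over all 42 libraries. A gene is said to be called, to have risen or to have fallen where edgeR's quasi-likelihood test gave an adjusted p under 0.05 over all genes tested. As a check of the labels, Trp53 itself stood at 12.4 to 13.8 CPM in the irradiated Null thymus and at 19.9 to 25.1 CPM in the other irradiated genotypes, and the p53 target Cdkn1a at 25.8 to 30.3 CPM in irradiated Het thymus and at 2.19 to 3.23 CPM in the other 3 genotypes. Null libraries were also the lowest in Trp53 in basal thymus (13.7 to 15.1 CPM, against 20.4 to 26.1 in AD and Het) and intestine (9.72 to 10.3, against 14.9 to 15.9 in AD). In basal liver AD and Null overlapped in Trp53 (7.52 to 8.2 and 5.78 to 8.15 CPM), and in basal pancreas too (7.82 to 12 and 11.5 to 13 CPM), so there it did not separate the labels. A few libraries held transcripts of other tissues (a mouse is named by its genotype and the number in its label). The 10 hepatocyte markers summed to 203 CPM in the irradiated thymus of AD-727, the 12 skeletal muscle markers to 407 CPM in the basal thymus of Het-697, and the 10 acinar pancreas markers to between 716 and 105381 CPM in the intestine libraries. In basal liver the acinar markers summed to 44.2 to 1996 CPM in AD and 55.7 to 117 in Null. The acinar gene Pnlip stood at 399 CPM in the liver of AD-702 and at 2.55 to 14.5 in the other livers. Both Xist and the Y-linked Ddx3y were present in the irradiated thymus of Het-595 (770 and 132 CPM) and Het-631 (87.3 and 99.7 CPM) and in the basal thymus of Het-855 (108 and 127 CPM) and Null-923 (56.2 and 174 CPM). Less Xist, 17.3 to 32.8 CPM, stood beside Ddx3y at 110 to 150 CPM in irradiated AD-726, AD-727, Null-857 and RP-656 and basal AD-700 and AD-701 thymus. The labels do not say how libraries of a group were prepared, so the p-values measure the spread between these samples.

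The liver was the main site of expression of the 47 genes. Of these, 37 had their highest mean in liver, 9 in intestine and 1, Ucp3, in thymus, and for 6 of the 47 the libraries of the highest tissue and of the next one overlapped. Per kilobase of annotated exon, the members' levels summed to 21125 CPM per kb in liver, 7170 in intestine, 440 in pancreas and 364 in thymus. Levels set between tissues depend on the TMM factors, where a lower factor gives a higher CPM. These were 0.3261 to 0.3865 in pancreas, 0.5355 to 0.605 in liver, 0.9151 to 1.027 in intestine and 1.443 to 1.528 in basal AD and Null thymus. The order of pancreas and thymus in these sums thus rests on the scaling. Fabp1, the cytosolic fatty acid carrier of liver and gut, made up 15500 of the liver sum and 5162 of the intestine sum, against 1.32 CPM per kb in thymus. In bulk tissue, fewer cells of a type and less RNA per cell cannot be told apart.

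The 9 dehydrogenase and electron transfer genes and the 3 isomerases and reductases were all highest in liver, as were 4 of 5 later mitochondrial steps, 10 of 11 peroxisomal genes, 7 of 10 activation and carnitine genes and 4 of 9 lipid handling genes. Acaa2, the thiolase that closes the mitochondrial cycle, had the next highest liver level after Fabp1, at 1179 CPM per kb against 39 in thymus. Acaa1b, a peroxisomal thiolase whose reads can be confused with those of its near-identical neighbour Acaa1a, stood at 395 CPM per kb in liver and 1.07 in thymus. Acox2, the peroxisomal oxidase of branched chains and bile acid precursors, stood at 137 CPM per kb in liver, 3.13 in intestine and 0.0254 in pancreas.

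The 9 genes highest in intestine were Acsl5, Cpt1b, Crat, Hadh, Acox3, Acot2, Cd36, Pdk4 and Ucp2. Acsl5, the main acyl-CoA synthetase of enterocytes, stood at 440 CPM per kb in intestine, 213 in liver, 19.1 in thymus and 11.4 in pancreas, whereas its paralogue Acsl1 stood at 259 in liver and at 10.4 or less elsewhere. Cd36, a fatty acid transporter of the cell surface, stood at 33 CPM per kb in intestine and between 10.8 and 12.7 in the other tissues. Ucp2, an uncoupling protein of immune and gut cells, stood at 30.6 CPM per kb in intestine, 24.5 in thymus and 2.81 in liver, and Acsl3 stood at 11.8 in liver and 8.22 in thymus with overlapping libraries. Cpt1b, the muscle form of carnitine palmitoyltransferase 1, stayed between 0.0657 and 0.166 CPM per kb in every tissue, while Cpt1a, the liver form, stood at 86.8 in liver, 31.4 in intestine, 17.3 in pancreas and 7.37 in thymus.

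**Figure D1:**
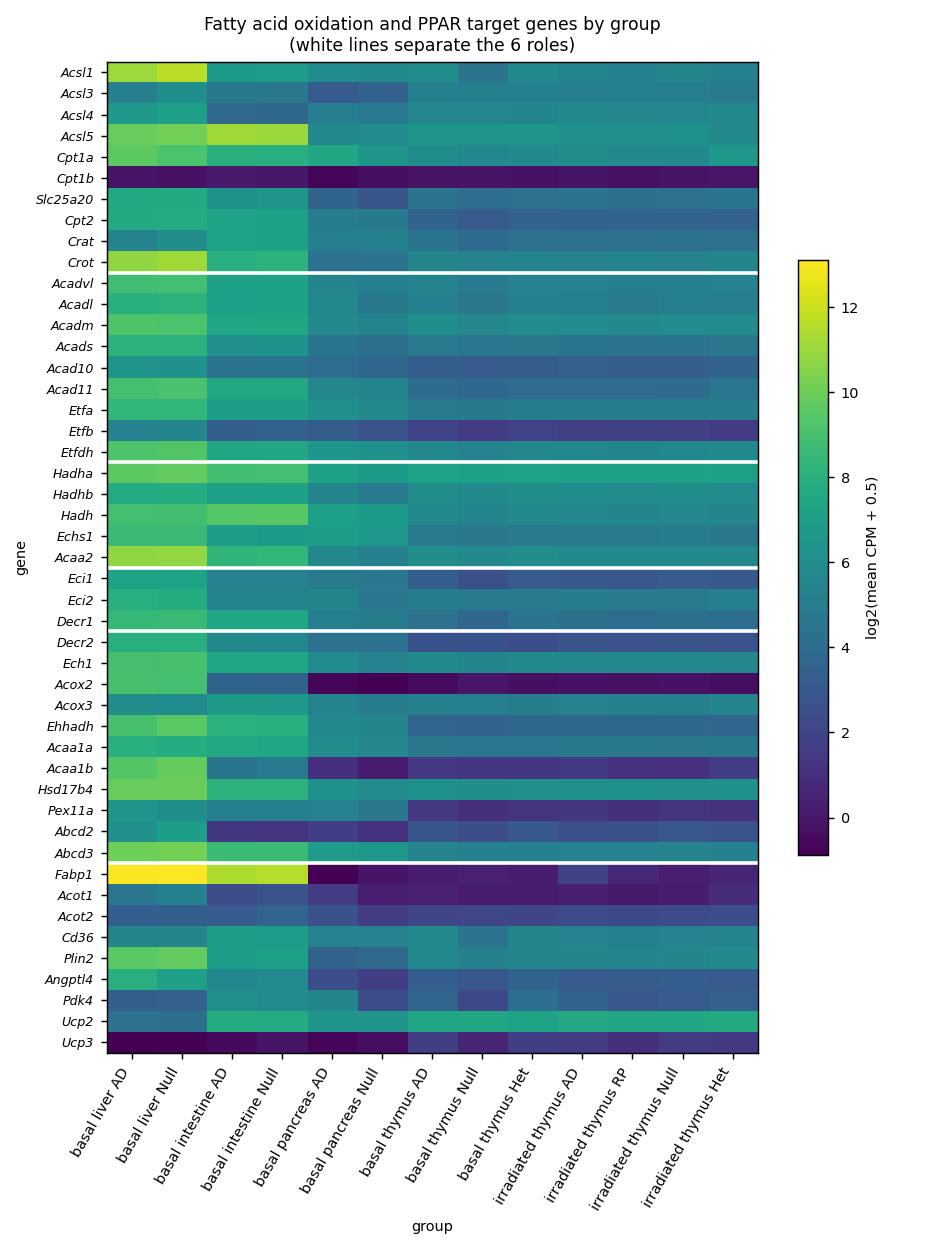
Level of the 47 members (rows, with white lines between the 6 roles) in each of the 13 groups (columns); colour is log2 of the group mean CPM plus 0.5. Taken over their genotypes, 37 members are highest in liver, 9 in intestine and 1 in thymus.

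Each tissue was set against the mean log2 level of the other 3 tissues in basal AD and Null mice. A call higher or lower thus does not give the rank of a tissue. In liver 41 of 47 members were called higher and 3 lower, where 70.8% of all 24431 genes tested were called (30.1% higher and 40.8% lower). The median log2 difference of the members was 2.72, against −0.42 for all genes. The largest increases were Fabp1 (log2 difference 10.23), Acox2 (9.46), Acaa1b (7.59), Acsl1 (5.37), Crot (4.92), which makes carnitine esters of medium chains in peroxisomes, and Abcd2 (4.85), a peroxisomal transporter of very long chains. Ucp2 (−2.97), Ucp3 (−2.64, at 0.0224 CPM per kb in liver) and Pdk4 (−1.01), the kinase that switches off pyruvate oxidation, were lower in liver. In intestine 37 members were called higher and 4 lower (63% of all genes called, 35.4% higher and 27.6% lower), with a median of 0.91 against 0.03 for all genes: Fabp1 (8.14), Acsl5 (3.58), Pdk4 (2.6), Hadh (2.28), Acox2 (2.23) and Crat (2.06) led, and Abcd2 (−2.41), Acsl4 (−2.05), Acsl1 (−0.75) and Eci2 (−0.63) were lower.

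Pancreas and thymus had the mirrored counts. In pancreas 41 members were called lower and 1 higher (61.8% of all genes called, 30.7% higher and 31.1% lower), with a median of −1.31 against −0.13, and the higher one was Pex11a (0.89), a protein of peroxisome division. Pex11a had means of 76.9 CPM in liver, 35.9 in intestine, 32.3 in pancreas and 1.92 in thymus, so by mean level pancreas was above thymus alone. The lowest there were Fabp1 (−10.75), Acox2 (−7.21), Acaa1b (−5.08), Crot (−3.71), the lipid droplet coat gene Plin2 (−3.59) and Angptl4 (−3.49), a secreted inhibitor of lipoprotein lipase. In thymus 41 were called lower and 4 higher (74.2% of all genes called, 43.5% higher and 30.7% lower), with a median of −1.94 against 0.22. The higher ones were Ucp2 (1.36), Acsl3 (0.71), Acsl4 (0.47) and Ucp3 (3.43), and the lowest were Fabp1 (−7.63), Acox2 (−4.48), Pex11a (−4.45), the peroxisomal bifunctional enzyme gene Ehhadh (−3.98), Acaa1b (−3.60) and Decr2 (−3.38). Because the same libraries serve as each other's comparison, these 4 sets of counts are not independent.

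The promoters of members that carry these patterns are shown to let the DR1 element be seen. RefSeq windows (GRCm38.p6) were matched by symbol for 40 members, with 43 windows in all; Angptl4, Abcd2, Crat, Decr1, Hsd17b4, Cpt1b and Acaa2 had no entry. Each line gives the 250 bases before the annotated start, 5′ to 3′ on the gene's strand, in lower case with matches in capitals. The start is that of RefSeq. The Cpt1a and Cd36 windows lie inside the GENCODE spans of these genes, and the Fabp1 window runs past the GENCODE start of Fabp1 at 71199827. The starts of these genes are thus not the outermost ones, and the last half-site marked in Fabp1 lies past its GENCODE start. In 35 of the 43 windows the first 30 transcribed bases lay in a GENCODE transcript of the gene. Capitals mark the half-site AGGTCA on either strand (as TGACCT on the opposite one) or the DR1 pattern, 2 copies of AGGTCA read in the same direction with 1 base between them, on either strand with up to 2 mismatches, which can overlap a half-site. Fabp1 lies at chr6:71199629-71199878 (+), Plin2 at chr4:86670060-86670309 (−), Cd36 at chr5:17835897-17836146 (−), Ucp3 at chr7:100472741-100472990 (+) and Cpt1a at chr19:3323051-3323300 (+).
Fabp1: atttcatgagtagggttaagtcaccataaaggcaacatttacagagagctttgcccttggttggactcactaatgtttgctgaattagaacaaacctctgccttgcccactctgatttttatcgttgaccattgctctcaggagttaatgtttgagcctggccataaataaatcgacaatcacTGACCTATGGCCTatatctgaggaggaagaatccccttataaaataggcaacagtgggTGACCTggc
Plin2: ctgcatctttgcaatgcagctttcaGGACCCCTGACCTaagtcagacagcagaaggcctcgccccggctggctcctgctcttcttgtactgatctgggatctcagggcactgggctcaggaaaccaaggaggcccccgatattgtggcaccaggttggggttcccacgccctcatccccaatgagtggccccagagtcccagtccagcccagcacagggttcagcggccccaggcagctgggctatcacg
Cd36: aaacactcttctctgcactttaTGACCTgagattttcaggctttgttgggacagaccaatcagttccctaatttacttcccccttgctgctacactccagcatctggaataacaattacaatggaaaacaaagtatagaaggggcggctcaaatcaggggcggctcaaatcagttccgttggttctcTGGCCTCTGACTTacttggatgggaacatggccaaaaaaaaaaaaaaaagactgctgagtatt
Ucp3: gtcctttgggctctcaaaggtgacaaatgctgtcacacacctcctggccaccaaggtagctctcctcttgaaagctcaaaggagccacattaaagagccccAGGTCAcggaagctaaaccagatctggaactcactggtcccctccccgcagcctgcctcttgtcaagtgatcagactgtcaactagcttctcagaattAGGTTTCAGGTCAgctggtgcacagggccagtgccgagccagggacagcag
Cpt1a: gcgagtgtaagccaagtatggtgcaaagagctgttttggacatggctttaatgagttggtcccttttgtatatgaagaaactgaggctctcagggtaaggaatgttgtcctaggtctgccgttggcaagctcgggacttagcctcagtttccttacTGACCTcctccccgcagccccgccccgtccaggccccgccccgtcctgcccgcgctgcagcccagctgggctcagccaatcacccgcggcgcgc

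Counting back from the start, the DR1 match began at base −67 in Fabp1, −225 in Plin2, −63 in Cd36 and −51 in Ucp3, while Cpt1a held only a single half-site, at −94. Over the 43 member windows, 6 held a DR1 match (the 4 above, Echs1 at −83 and Etfa at −77), against 3.237% of 32841 windows of the same length in RefSeq. The half-site alone was in 8 of 43 (Acadm, Acadvl, Cd36, Cpt1a, Echs1, Fabp1, Plin2 and Ucp3), against 14.028% of all windows. The p53 half-site pattern was in 0 of the 43, against 7.128% of all windows. A match is a description of the letters, not a site, and no match says only that these letters are not in this window.

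In irradiated thymus, 5 members were higher and 2 lower in Het than in Null mice. Cpt1a, the gate through which long chains enter mitochondria, rose 1.70-fold in Het. Acot1, a cytosolic thioesterase that splits acyl-CoA, rose 1.96-fold, Acad11, a dehydrogenase of very long and hydroxylated chains, 1.47-fold, Acox3, a peroxisomal oxidase of branched chains, 1.30-fold, and Eci2, an isomerase for unsaturated chains, 1.25-fold. The synthetases Acsl5 and Acsl3 fell to 0.716 and 0.874 of the Null level. Of all 22206 genes, 19.2% were called in this comparison (9.79% higher and 9.38% lower), so 7 of 47 members is no larger a share, and the members' median log2 difference was −0.06 against −0.01 for all genes. The sign of that median was not stable: it was 0.16 with a sex covariate (high or low Xist) and 0.05 with the fat marker Adipoq. It was 0.16 with the brown fat gene Ucp1 (added after seeing the data), and above 0 without Null-856, Het-594, Het-595 or Het-603. The sex covariate put all irradiated Het libraries on the high Xist side, among them Het-595 and Het-631, which also held Ddx3y. That fit thus cannot be read as a clean adjustment for sex.

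Cpt1a (chromosome 19, 3322334 to 3385733, plus strand) stood at 95.3, 99.7, 86.9 and 102 CPM in the Het libraries, at 50.2, 62, 49.2 and 60.2 in Null, at 56.6, 69.4, 68.1 and 62.9 in AD and at 56.9, 48.9, 50 and 54.4 in RP. All 4 Het libraries lay above the 12 others, and the AD, Null and RP ranges overlapped. The log2 difference Het minus Null was 0.77 ± 0.09 (SE, edgeR's quasi-likelihood test, adjusted p = 4.87e-06), AD minus Het −0.55 ± 0.09 (adjusted p = 0.000262) and RP minus Het −0.85 ± 0.09 (adjusted p = 1.5e-06).

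Acox3 (chromosome 5, 35583040 to 35615352, plus strand) stood at 45.3, 44.9, 45.5 and 52 CPM in Het and at 36.8, 32.7, 36.5 and 35.5 in Null. Every Het library was above every AD (36.9 to 41.4 CPM), Null and RP (34.7 to 37.9 CPM) library. The log2 difference Het minus Null was 0.38 ± 0.06 (adjusted p = 0.000312, edgeR's quasi-likelihood test).

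Acad11 (chromosome 9, 104063377 to 104127725, plus strand) stood at 25.3, 23.8, 24.1 and 24.2 CPM in Het, at 14.9, 13.2, 20.1 and 16.9 in Null, at 15.6, 15.1, 16.7 and 20 in AD and at 15.6, 15.2, 17.7 and 18.4 in RP. The Het libraries again lay above the rest, and Null spanned the whole range of the 3 lower genotypes (Het minus Null 0.56 ± 0.11 log2, adjusted p = 0.00136, edgeR's quasi-likelihood test). Eci2 stood at 36.4, 34.1, 38.9 and 35.1 CPM in Het against 28.9, 29.4, 27.4 and 27.9 in Null, with no overlap (0.32 ± 0.07 log2, adjusted p = 0.00285).

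Acot1 was low, at 1.25, 1.42, 1.39 and 1.29 CPM in Het and 0.74, 0.566, 0.542 and 0.838 in Null, without overlap (0.97 ± 0.22 log2, adjusted p = 0.00455, edgeR's quasi-likelihood test). It lies beside Acot2 on chromosome 12, and the authors' counting could split reads between these close copies. Acsl5 went the other way, at 61.9, 50.8, 60.7 and 53.7 CPM in Het and 72.6, 85.1, 78.7 and 75.1 in Null (−0.48 ± 0.08 log2, adjusted p = 3e-04). Acsl3, at 28.8 to 31.3 CPM in Het and 31.6 to 35.1 in Null, fell by 0.19 on the log2 scale (adjusted p = 0.0204); this call ended without Null-857, Het-594 or Het-603, without the filter on low counts and when only the 2 groups were fitted, while the other 6 calls held in all 23 alternatives run.

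**Figure D2:**
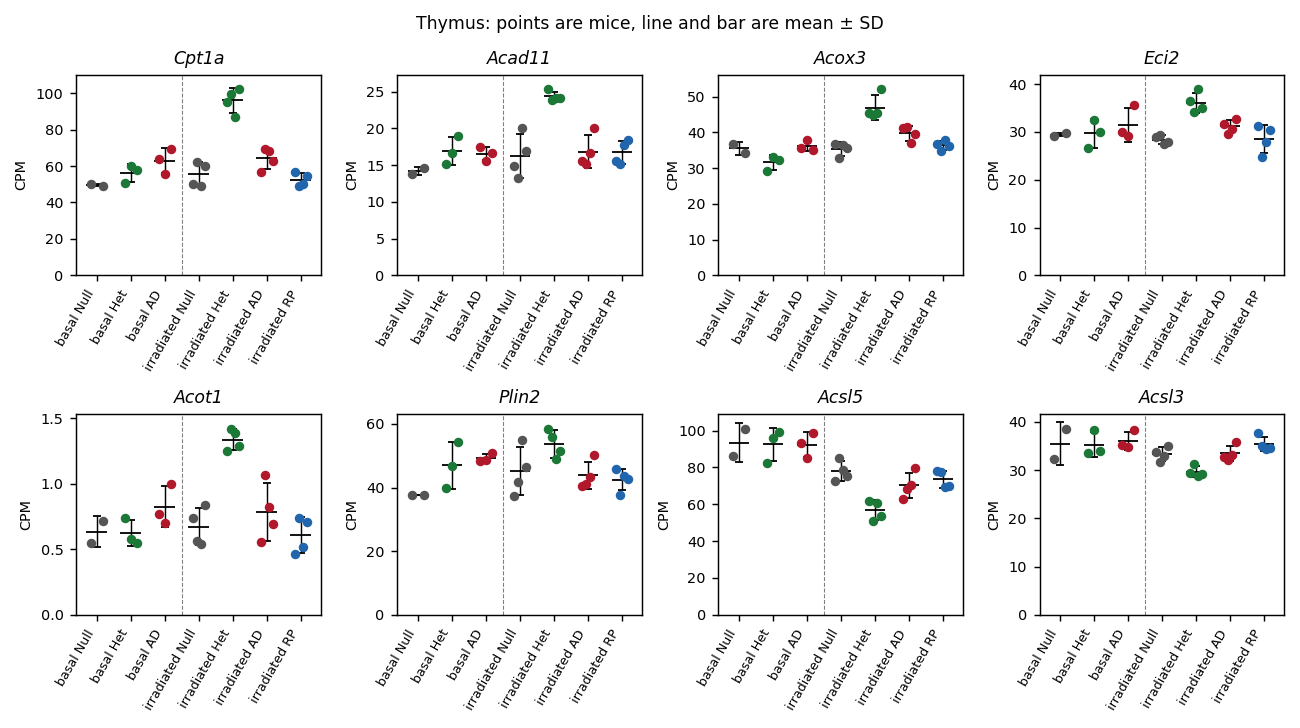
CPM (y axes, from 0) of 8 members in the 24 thymus libraries by irradiation state and genotype (x axis); points are mice, lines are means and bars are SD. The 4 irradiated Het libraries sit above all the others for Cpt1a, Acad11 and Acox3 and below all the others for Acsl5.

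By role, the calls came from activation and carnitine transfer (1 of 10 higher, 2 lower), dehydrogenases (1 of 9), isomerases (1 of 3), peroxisomal oxidation (1 of 11) and lipid handling (1 of 9). None of the 5 later mitochondrial genes (Hadha, Hadhb, Hadh, Echs1, Acaa2) was called, and all 5 had negative values with a median of −0.15. The 40 members that were not called ranged from −0.42 to 0.68 log2. Among 40 other genes of the pathway tested in irradiated thymus, 5 were higher and 1 lower in Het than in Null. Cpt1c, the brain form of carnitine palmitoyltransferase 1, rose by far the most of these, from 0.359–0.603 CPM in Null to 2.59–3.39 in Het (log2 difference 2.66), followed by Abcd4 (0.40) and the fatty acid binding protein gene Fabp5 (0.39). Bdh1, a ketone body dehydrogenase, fell by 0.34 on the log2 scale.

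Thymic epithelium markers moved with the same contrast. The 8 markers summed to 971 to 1210 CPM in irradiated Het libraries, against 659 to 733 in Null, 647 to 728 in AD and 660 to 790 in RP, with none at 0. Of the 8, 4 were called higher in Het than in Null (Krt8, Prss16, Ccl25 and Psmb11), where 9.79% of all genes were. Of the macrophage and thymocyte markers, 3 of 10 and 2 of 10 were called higher. The macrophage sums overlapped, at 348 to 715 CPM in Het and 386 to 477 in Null. So did the thymocyte sums, at 5720 to 7669 and 4881 to 6186 CPM. The 12 skeletal muscle markers also set Het apart. They summed to 38.8 to 66.1 CPM in Het, against 26.5 to 33.8 in Null, 26.4 to 33.7 in AD and 29.8 to 32.8 in RP. The 8 brown adipocyte markers summed to 12.7 to 119 CPM in Het and 23.3 to 183 in Null, so these groups overlapped. The part of these cells in the members' differences was not tested.

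AD and RP thymus after irradiation also differed from Het thymus. The AD minus Het comparison called 4 members lower (Cpt1a, Acot1 −0.74, Acad11 −0.50, Acox3 −0.21) and 2 higher (Acsl5 0.34, Acsl3 0.21), where 14% of all genes were called (8.27% lower and 5.69% higher). The calls of Acot1, Acox3 and Acsl3 ended without the filter on low counts and when only the 2 groups were fitted, which left Cpt1a and Acad11 lower and Acsl5 higher. Those of Acot1 and Acox3 also ended with a sex covariate and without AD-630, AD-726 or AD-727, that of Acot1 with a Ucp1 covariate and without Het-595 or Het-603, that of Acox3 without Het-631, and that of Acsl3 without Het-594, Het-603 or AD-727. RP minus Het called 6 lower (Acot1 −1.12, Cpt1a, Acad11 −0.53, Acox3 −0.35, Plin2 −0.33, Eci2 −0.32) and 2 higher (Acsl5 0.39, Acsl3 0.27), where 18.7% of all genes were called (10.2% lower and 8.53% higher). Plin2 stood at 58.5, 56, 48.9 and 51.5 CPM in Het and at 45.7, 37.8, 43.7 and 42.6 in RP, with no overlap (adjusted p = 0.0264, edgeR's quasi-likelihood test), and this call ended without Het-594, Het-595, RP-653 or RP-656. All of these comparisons share the 4 Het libraries with each other and with Het minus Null.

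Among the genotypes without wild-type p53, no member was called after irradiation by edgeR's quasi-likelihood test or by DESeq2. AD minus Null had 0 of 47 called, with 3 at an unadjusted p under 0.05 and 0.027% of all genes called. Its smallest p-values were those of Acox3 (0.18 ± 0.06 log2, adjusted p = 0.502), Cpt1a (0.22 ± 0.09, adjusted p = 0.54), Fabp1 (2.10, adjusted p = 0.548) and Eci2 (0.14, adjusted p = 0.632). The Fabp1 value rested on AD-727, at 10.1 CPM against 0.549 to 0.917 in the other AD libraries, and was 0.02 without it; the same library held the hepatocyte markers named above, with Alb at 117 CPM.

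RP minus Null had 0 of 47 called, with 0 at an unadjusted p under 0.05 and 0.0315% of all genes called; 36 of 47 values were negative, with a median of −0.08 against −0.02 for all genes. Its smallest p-values belonged to Acaa1a (0.11), Hadhb (−0.18), Abcd2 (−0.37) and Acsl3 (0.08), each with an adjusted p of 0.998. In AD minus RP, 0 of 47 were called (2 at an unadjusted p under 0.05, and 0% of all genes called), 39 values were positive and the median was 0.09 against 0.01. Cpt1a had 0.31 (adjusted p = 0.626), Acox3 and Eci2 each 0.15, and Fabp1 went from 1.49 to −0.59 without AD-727.

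Comparing irradiated with basal thymus within a genotype, 8 members were higher and 2 lower in Het, where 16.8% of all 23605 genes were called (8.74% higher and 8.09% lower). Cpt1a rose 1.67-fold (0.74 ± 0.09 log2, adjusted p = 3.62e-06, edgeR's quasi-likelihood test), from 50.9, 60.2 and 57.6 CPM in the 3 basal Het libraries to the irradiated values given above. Acox3 rose 1.45-fold (0.54 ± 0.07, adjusted p = 3.79e-06) from 29.3, 33.2 and 32.3 CPM, and Ucp2 rose 1.29-fold (adjusted p = 0.00058), from 165, 153 and 140 CPM to 206, 206, 200 and 192. Neither gene's irradiated and basal Het libraries overlapped. Acot1 (2.10-fold), Acad11 (1.41-fold), Acad10 (1.24-fold), Eci2 (1.19-fold) and Acaa1a (1.13-fold) also rose, and the calls of the last 3 ended, among other alternatives, without the basal thymus of Het-697 or Het-855.

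Acsl5 fell to 0.600 of its basal level in Het thymus, from 82.2, 96 and 99.2 CPM (−0.74 ± 0.09 log2, adjusted p = 9.98e-07, edgeR's quasi-likelihood test), and Acsl3 fell to 0.823 of it. Acsl5 was also the sole member called in AD, where it fell by 0.38 on the log2 scale (adjusted p = 0.0356; 0.546% of all genes called, 0.381% lower), from 93, 85.3 and 98.9 CPM to 62.9, 68.4, 70.3 and 79.4. The irradiated AD libraries thus lay below the basal ones without overlap; the call ended with the fat marker Adipoq as a covariate, without the irradiated thymus of AD-630, AD-633 or AD-726, and without any 1 of the 3 basal AD libraries. In Null, 0 of 47 members were called (5 at an unadjusted p under 0.05, 0 by DESeq2, and 0.131% of all genes called), Acsl5 stood 0.24 lower and the smallest p-values otherwise were those of Ehhadh (0.38), Etfdh (0.35) and Echs1 (0.38). Basal and irradiated mice were different animals, and any difference in handling between them cannot be told apart from irradiation.

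The irradiation response itself differed between genotypes for few members. Against AD, the Het response was larger for Cpt1a (0.70 ± 0.13 log2, adjusted p = 0.00153, edgeR's quasi-likelihood test) and Acox3 (0.39 ± 0.10, adjusted p = 0.0176), where 3.98% of all genes were called (2.94% higher); Acot1 (1.12, adjusted p = 0.0561) and Acad11 (0.46, adjusted p = 0.109) did not pass. The Acox3 call ended without the basal thymus of Het-697 or AD-701. Against Null it was larger for Acox3 (0.52 ± 0.10, adjusted p = 0.00285) and Cpt1a (0.56 ± 0.14, adjusted p = 0.0228) and more negative for Acsl5 (−0.50 ± 0.13, adjusted p = 0.032), where 3.44% were called (2.37% higher and 1.07% lower); Echs1 (−0.64, adjusted p = 0.105) did not pass. Without the basal thymus of Null-859, 1 of the 2 basal Null libraries, 0 of these 3 calls against Null were left. The Cpt1a call also ended without the basal thymus of Null-923 or Het-697 and with a sex or Adipoq covariate, and the Acsl5 call without the irradiated thymus of Null-604 or Het-595, without the basal thymus of Het-703 or Het-855, and with an Adipoq or Ucp1 covariate. Between AD and Null the response of 0 of 47 members was called, with 3 at an unadjusted p under 0.05, 0 by DESeq2 and 0% of all genes called.

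In unirradiated thymus no member was called between genotypes, although most values leaned one way. AD minus Null had 41 of 47 values positive and a median of 0.31 against 0.00 for all genes. Of the members 0 were called (0.0676% of all genes), while DESeq2 called 3 members and 168 of all genes. An unadjusted p under 0.05 was found for 19 of the 47 members and for 1704 of all 22173 genes. All 9 dehydrogenase and electron transfer genes, all 5 later mitochondrial genes and all 3 isomerases and reductases had positive values. Het minus Null had 40 positive, a median of 0.29 and 0 called (0.0676% of all genes), while DESeq2 called 1 member and 107 of all genes. Here 13 members and 1591 of all genes had an unadjusted p under 0.05. AD minus Het had 0 called by either tool, 1 at an unadjusted p under 0.05, 0% of all genes called and a median of 0.04.

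The smallest p-values in AD minus Null were those of Plin2 and Cpt1a. Plin2 stood at 48.5, 48.7 and 50.9 CPM in AD, at 37.6 in both Null libraries and at 39.7, 46.7 and 54.4 in Het (AD minus Null 0.41 ± 0.10 log2, adjusted p = 0.214, edgeR's quasi-likelihood test). Cpt1a stood at 64, 55.8 and 69.2 CPM in AD and at 50.1 and 49.2 in Null (0.36 ± 0.09 log2, adjusted p = 0.231). AD and Null libraries did not overlap for either gene. The Het libraries, at 50.9, 60.2 and 57.6 CPM for Cpt1a, all lay above both Null libraries, and overlapped the AD range for each gene. Etfdh, which passes electrons from the dehydrogenases to ubiquinone (0.35, adjusted p = 0.301), and Ucp3 (1.57, adjusted p = 0.468) followed. In Het minus Null they were Plin2 (0.35, adjusted p = 0.369), Etfdh (0.30), Ucp3 (1.55) and Acad11 (0.29), and in AD minus Het Acox3 (0.18), Acaa1a (0.14), Cpt1a (0.15) and Hsd17b4 (0.13), each of the last 4 with an adjusted p of 0.999.

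Fat markers moved with these values. Brown adipocyte markers (8 genes, led by Ucp1) summed to 23.2 to 39.9 CPM in basal Null, 20.7 to 161 in Het and 91.8 to 132 in AD thymus, and white adipocyte markers (14 genes) to 200 to 207, 261 to 781 and 534 to 683 CPM, with no marker of either list at 0. Adipoq, the adipocyte hormone gene, stood at 5.89 and 5.99 CPM in Null, 9.45, 19.4 and 20.5 in Het and 18.2, 23.7 and 21.5 in AD. With Adipoq as a covariate the members' median turned to −0.42 in AD minus Null and −0.32 in Het minus Null, and with Ucp1 as a covariate, an alternative chosen after seeing the data, it was 0.04 and 0.08. Every AD and Het library lay above both Null libraries in Adipoq, so the Adipoq fit cannot tell genotype and fat content apart. Without Het-697, the library with the muscle markers and the least Adipoq of the Het group, 18 members were called in Het minus Null and 10 in AD minus Null. The number of all genes called without that library is not given here, so the 18 and 10 cannot be set against it.

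Across the 24 thymus libraries Ucp1, the heat-producing protein of brown fat, ranged from 4.90 to 105 CPM, and 27 of the 47 members were positively correlated with it and 0 negatively (Pearson and rank correlation on log2 values, permutation test with 100000 resamples, adjusted p under 0.05 over the 47 relations). The closest were Acsl1 (r = 0.915, rho = 0.917), Decr1 (r = 0.893, rho = 0.876), the reductase for unsaturated chains, Cd36 (r = 0.879, rho = 0.888), Acadl (r = 0.878, rho = 0.910), the long-chain dehydrogenase, Ucp3 (r = 0.874, rho = 0.925) and Pdk4 (r = 0.860, rho = 0.880), each with a permutation p of 1e-05 (the smallest the resampling can give) and an adjusted p of 3.13e-05. For Acsl1, r was 0.906 without the 2 libraries farthest from the median Ucp1, 0.926 within the 16 irradiated libraries and 0.911 within the 8 basal ones. All 27 were positive within both states.

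The members called between irradiated Het and Null were not among the 27. Cpt1a had r = −0.148 (rho = 0.00522, permutation p = 0.492 and 0.981), Acox3 r = −0.0318, Eci2 r = −0.0732, Acad11 r = 0.0682, Acot1 r = −0.268, Acsl5 r = 0.300 and Acsl3 r = 0.297, each with an adjusted p above 0.05. These values pool states that differed. Within basal libraries r was 0.796 for Cpt1a, 0.746 for Acad11, 0.674 for Eci2, 0.454 for Acsl5 and 0.395 for Acox3. For Acsl3 and Acot1 it was 0.158 and 0.0578. In the same order of genes, r within irradiated libraries was −0.391, −0.0779, −0.366, 0.399, −0.145, 0.382 and −0.372. No test was made within a state. Within the irradiated groups Ucp1 stood at 18.7, 11.4, 105 and 73.9 CPM in Null, 18.6, 4.90, 15.5 and 66.1 in Het, 31.4, 38.2, 47 and 82.3 in AD and 32.4, 39, 39.6 and 31.7 in RP, so the groups overlapped. In the same order of mice Acsl1 stood at 32, 24, 73.3 and 49.8 CPM in Null, 37.4, 14.3, 26.7 and 73.5 in Het, 33.7, 32.2, 38.6 and 65.9 in AD and 33.8, 34.5, 40 and 41.7 in RP. Both genes ranked the Null and the Het mice in the same order. They did not rank AD-630 and AD-633 alike, and the RP library lowest in Ucp1 was the highest in Acsl1. In irradiated Null, AD and Het thymus the libraries lowest in Xist (Null-856, Null-857, AD-726, AD-727 and Het-631) were the highest in Ucp1. RP libraries low and high in Xist overlapped in Ucp1. In basal AD and Null thymus the library highest in Xist was highest in Ucp1 (AD-702 at 85.9 CPM, Null-859 at 22.9), but not in basal Het. The part of sex in the correlations was not tested. With Ucp1 as a covariate, chosen after seeing the data, 14 members were called higher and 2 lower in Het than in Null, against 5 and 2 without it. Of all 22206 genes, 4704 were called with the covariate and 4257 without it.

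**Figure D3:**
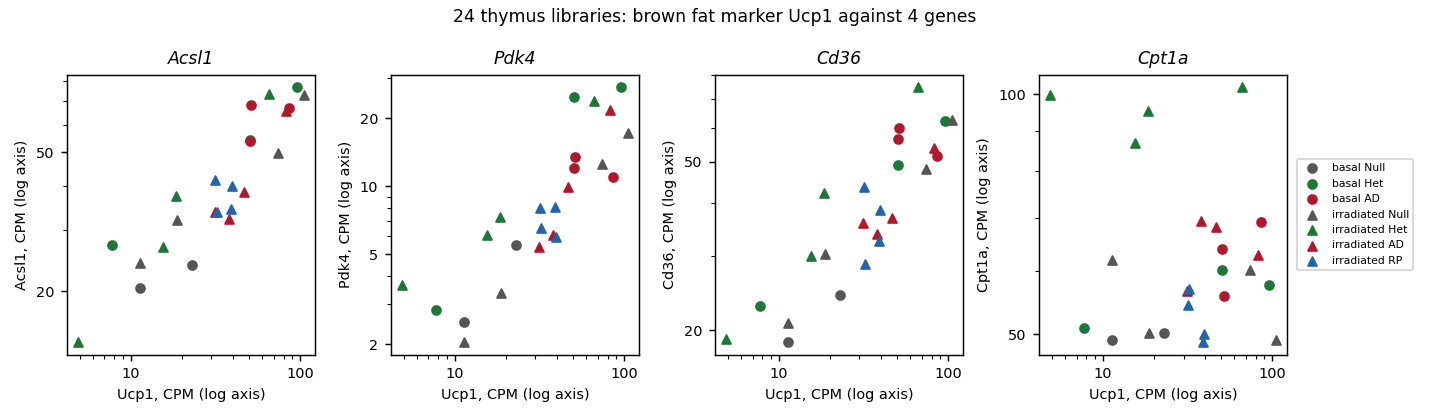
CPM of Acsl1, Pdk4, Cd36 and Cpt1a (y axes, log scale) against CPM of the brown fat marker Ucp1 (x axes, log scale) in 24 thymus libraries; each point is a mouse. Acsl1, Pdk4 and Cd36 climb with Ucp1 in basal and irradiated libraries, whereas Cpt1a is highest in the 4 irradiated Het libraries at both low and high Ucp1.

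In basal liver, 1 of 45 members tested was called between AD and Null mice, where 0.267% of all 15755 genes were called (0.114% lower). An unadjusted p under 0.05 was found for 9 members and for 1489 of all genes. Acsl3, a synthetase of the endoplasmic reticulum and lipid droplets, stood at 31.6, 37.9 and 39.2 CPM in AD and at 70.6, 56.8 and 72.2 in Null, with no overlap. It fell to 0.565 of the Null level (−0.82 ± 0.13 log2, adjusted p = 0.0342, edgeR's quasi-likelihood test). This call ended without AD-700, AD-701, Null-923 or Null-1087.

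Cpt1a leaned higher in AD liver, at 763, 771 and 763 CPM against 626, 432 and 622 in Null (0.51 ± 0.13 log2, adjusted p = 0.223, edgeR's quasi-likelihood test), and Crat, carnitine acetyltransferase, lower, at 39.3, 44.7 and 38.3 against 47.6, 70.2 and 75.3 (−0.61, adjusted p = 0.242). Neither gene's groups overlapped. Acot1 had −0.61 (adjusted p = 0.269) and Ehhadh, at 520 ± 55.4 CPM in AD and 736 ± 106 in Null (SD, n = 3 each), −0.45 (adjusted p = 0.281). Of 9 activation and carnitine genes tested in liver 8 had negative values, with a median of −0.28, whereas the 11 peroxisomal genes had a median of 0.02 and all 45 members one of −0.03 against 0.00 for all genes. Among 45 other pathway genes 1 was called: Hacl1, which splits hydroxylated chains in peroxisomes, stood at 662 ± 45.0 CPM in AD and 1358 ± 218 in Null, SD over 3 mice each (−0.99 ± 0.13 log2, adjusted p = 0.0189).

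In basal pancreas no member was called between AD and Null, but 34 of 42 values were positive, with a median of 0.27 against 0.00 for all genes. Of all 14604 genes 0.0548% were called, and DESeq2 called 3 members and 51 of all genes. An unadjusted p under 0.05 was found for 16 members and for 1181 of all genes. Acadl stood at 57, 49.6 and 42.1 CPM in AD and 28, 20.4 and 31.4 in Null (0.86 ± 0.18 log2, adjusted p = 0.156, edgeR's quasi-likelihood test), Eci2 at 51.7, 47.3 and 38.1 against 31.1, 19.5 and 22.9 (0.86 ± 0.19, adjusted p = 0.217), and Cpt1a at 209, 156 and 158 against 109, 99 and 62.7 (0.91 ± 0.21, adjusted p = 0.251). The AD and Null libraries of these 3 genes did not overlap. Ech1, a peroxisomal and mitochondrial isomerase, followed (0.58 ± 0.15, adjusted p = 0.274). All 9 dehydrogenase and electron transfer genes and all 5 later mitochondrial genes had positive values.

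The largest log2 difference among the 42 members tested in pancreas was that of Pdk4, at 84.4, 44.8 and 9.43 CPM in AD and 10.9, 0.727 and 3.84 in Null, where the lowest AD library lay under the highest Null one (log2 difference 3.07, not called). Adipoq stood at 0, 15.7 and 0.98 CPM in the same AD mice and 2.35, 0 and 4.66 in the Null mice; with Adipoq as a covariate, an alternative chosen after seeing the data, the members' median was 0.27, as without it. The 14 white adipocyte markers summed to 269 to 523 CPM in AD and 206 to 290 in Null pancreas, with none at 0. The 6 fibroblast markers summed to 1343 to 1934 CPM in AD and 1733 to 2313 in Null. Of the 10 and 6 tested, 0 were called, with median log2 differences of 0.58 and −0.25; their part in the members' values was not tested.

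**Figure D4:**
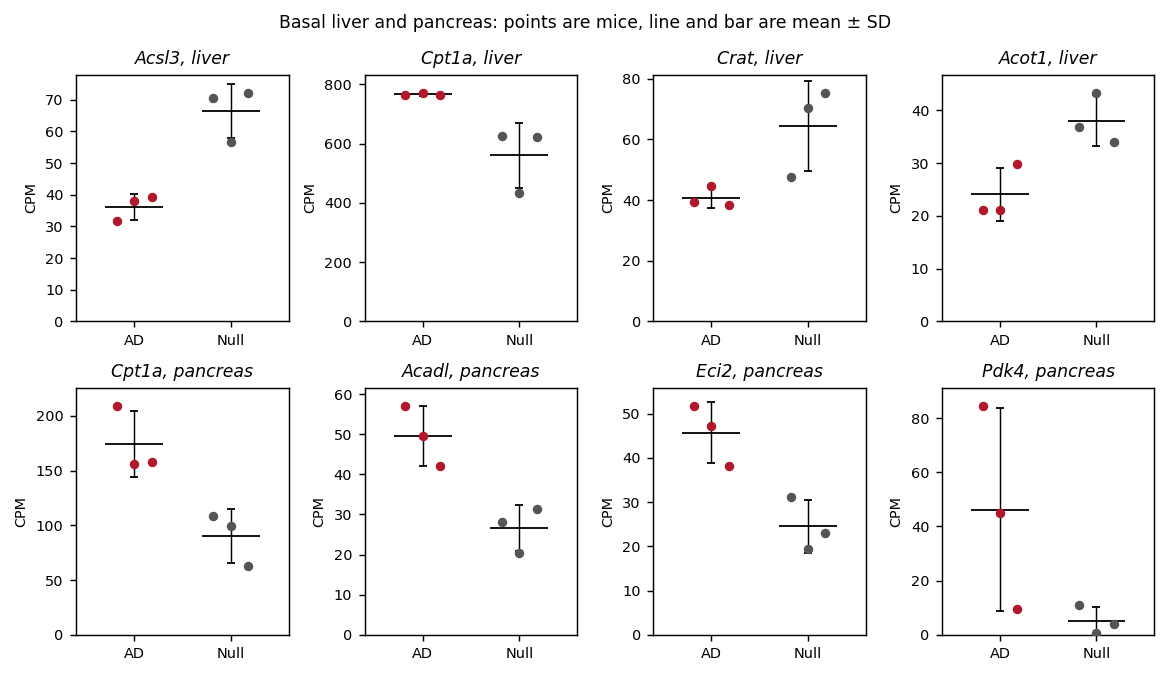
CPM (y axis, from 0) of 4 members in basal liver and 4 in basal pancreas of 3 AD and 3 Null mice; points are mice, lines are means and bars are SD. Acsl3 in liver is called lower in AD, and Cpt1a lies higher in AD in both organs without passing the test.

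In basal intestine 0 of 46 members were called, with 1 at an unadjusted p under 0.05, 0 by DESeq2 and 0.015% of all 20011 genes called. The values split evenly, 24 positive and 22 negative, with a median of 0.00 for members and for all genes. Acot2, a mitochondrial thioesterase, stood at 8.37, 8.20 and 8.77 CPM in AD and at 11.5, 12.8 and 13.2 in Null, with no overlap (−0.56 ± 0.12 log2, adjusted p = 0.37, edgeR's quasi-likelihood test). The carnitine carrier Slc25a20 (−0.24), Crot (−0.21) and Acaa1a (0.23) followed. Cpt1a had group means of 241 ± 1.75 CPM in AD and 239 ± 32.6 in Null (SD, n = 3 each).

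Whether the AD minus Null difference itself depended on the organ was tested over the 4 basal tissues, and 2 of 47 members were called (0.172% of all 24431 genes). Acsl1 had 1.54 log2 in thymus, 0.11 in pancreas, −0.07 in intestine and −0.54 in liver (adjusted p for a difference among tissues = 0.00673, edgeR's quasi-likelihood test), and Acadl had 0.66, 0.86, −0.12 and −0.10 (adjusted p = 0.0228). Both genes were among those correlated with Ucp1 in thymus, and without the basal thymus of Null-859 the count was 0.

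**Figure D5:**
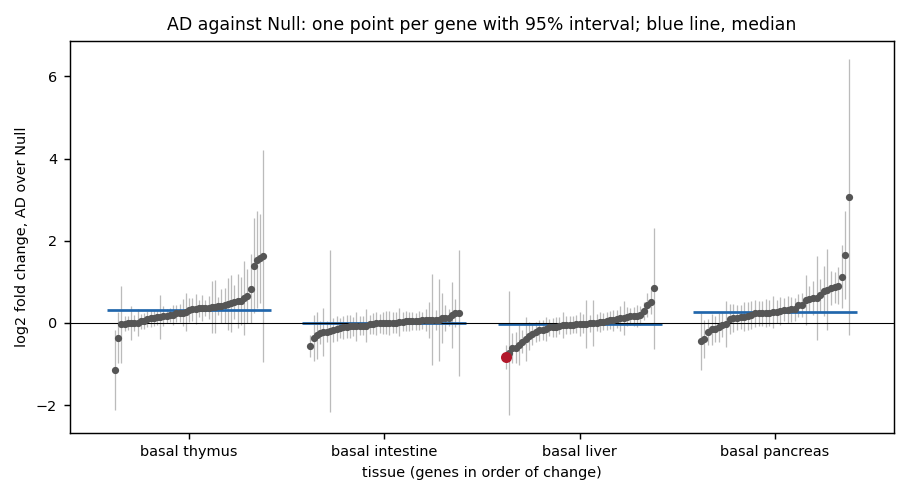
AD minus Null log2 difference (y axis) of each tested member in 4 basal tissues, ordered by size within a tissue (x axis); points are genes with 95% intervals, blue lines are medians and the red point is the called Acsl3. Medians lie at 0.31 in thymus and 0.27 in pancreas, and at −0.03 in liver and 0.00 in intestine.

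Some members were followed through all groups because they mark different branches of the pathway. Acadm, the medium-chain dehydrogenase, had means of 48.7 to 68.5 CPM in the 7 thymus groups, 43.4 and 52.3 in Null and AD pancreas, 171 and 169 in intestine and 579 and 624 in liver. Hadha, a subunit of the trifunctional protein, spanned only 137 to 150 CPM over the thymus groups. Angptl4 had means of 7.22 to 11.4 CPM in thymus and, in liver, 244 ± 99.6 in AD and 141 ± 66.5 in Null (SD, n = 3 each), and the gene was not called. Cpt1b stayed between 0.123 and 0.597 CPM in all 13 groups, so its values rested on few reads.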

How the data were processed

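The 42 libraries were analysed from 1 table of raw read counts per gene, deposited by the authors; per the submitters' processing notes, STAR 2.6.0b, the GRCm38 build and DESeq2 were used. The counting tool, its strand setting and the annotation are not given in the sources used here, so reads of overlapping, antisense or near-identical genes cannot be told apart. Of 49585 identifiers 49326 matched GENCODE M21. For basal samples, 8 column names gave no tissue. Of these, 5 were assigned to thymus because the other tissues of the same mouse had columns that name them. The rest, all Het, matched the start of a single sample title.

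Within each tissue or state, genes were filtered with filterByExpr (edgeR 4.0.16, R 4.3.3), scaled by TMM and fitted with the robust quasi-likelihood test, all groups of the fit sharing 1 spread; p-values were adjusted by Benjamini-Hochberg over all genes tested. Tissues and thymus states were compared in joint fits of 23 and 24 libraries. Correlations used log2(CPM + 0.5). Alternatives were DESeq2 1.42.0, other size factors (RLE), no filter, sex, Adipoq or Ucp1 covariates, only 2 groups, a mouse block and leaving out each library. The sex covariate was high or low Xist, split at the middle of its log2 range in each fit, without use of Ddx3y. Libraries holding both transcripts could thus be placed wrongly. The members, lists and markers were chosen with earlier results of these data known. The rule named every called member where at most 12 were called and otherwise the 6 largest each way, 4 by smallest p where under 4 were called, and 10 genes followed throughout; the pancreas Pdk4 values and the Acaa2 and Acox2 levels were chosen after they were seen. Scripts were tested on simulated counts.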

Additional observations from a re-analysis of the deposited data

Results flagged for a closer look

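In groups of 4 irradiated thymus libraries, 7 of 188 member values lay apart from the other 3 in their group (the gap to the nearest value, divided by the range, was above 0.829); chance flags about 1 in 20. The irradiated thymus of Het-631 had Acox3 at 52 CPM (others 44.9 to 45.5), Acox2 at 0.0497 CPM (0.33 to 0.392) and Fabp1 at 0.497 CPM (1.18 to 1.26). The irradiated thymus of AD-727, which held hepatocyte markers, had Fabp1 at 10.1 CPM (0.549 to 0.917) and Acox2 at 0.833 CPM (0.213 to 0.266). The irradiated thymus of RP-653 had Acad10 at 11.2 CPM (9.29 to 9.5) and Acaa2 at 47.6 CPM (55 to 56.3).

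The response to irradiation differed between genotypes by edgeR's quasi-likelihood test of the difference for Cpt1a (0.70 log2 more in Het than in AD and 0.56 more than in Null), Acox3 (0.39 and 0.52) and Acsl5 (−0.50 against Null). The AD minus Null difference varied among the 4 basal tissues for Acsl1 (adjusted p = 0.00673) and Acadl (adjusted p = 0.0228).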

How the results depend on the processing

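Counts below are members called by edgeR's quasi-likelihood test. Without the filter on low counts they were 3 for irradiated AD minus Het (6 with it), 9 and 10 for basal thymus Het and AD minus Null (0 and 0), 7 in liver (1) and 5 in pancreas (0). Over all genes, the calls without the filter were 2536 for irradiated AD minus Het (3099 with it). They were 353 and 403 for basal thymus Het and AD minus Null (15 each), 454 in liver (42) and 209 in pancreas (8). DESeq2 called 1 and 3 in basal thymus Het and AD minus Null, 2 in liver, 3 in pancreas and 12 by tissue (2). Over all genes, in the same order, DESeq2 called 107, 168, 201, 51 and 408, against 15, 15, 42, 8 and 42 by edgeR. Fitting only the 2 groups gave 3 for irradiated AD minus Het and 11 for basal thymus AD minus Null, with 2365 and 167 of all genes called. A sex covariate gave 2 in liver (96 of all genes). Adipoq gave 0 for AD irradiated minus basal and 1 for the response of Het against Null (128 and 730 of all genes). Ucp1, added after seeing the data, gave 16, 13 and 18 for irradiated Het minus Null, AD minus Het and RP minus Het. It gave 1 and 1 for basal Het and AD minus Null. In the same order, 4704, 3261, 4608, 54 and 18 of all genes were called with Ucp1. Among the values of the members chosen by the naming rule, over all alternatives of the genotype and irradiation comparisons, 79 lost a call, 41 gained one, 36 not called shifted by more than their SE and 0 called ones changed sign. The causes were not tested. With the mouse number as a replicate block, the tissue counts stayed at 44 (liver), 41 (intestine), 42 (pancreas) and 45 (thymus), with 2 by tissue, so the block changed no count. An alternative added after seeing the data left out the intestine and liver libraries with most pancreatic transcript. It gave the same tissue counts, and 3 by tissue (51 of all genes, against 42).

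Leaving out 1 library at a time gave ranges of 6 to 9 for irradiated Het minus Null, 4 to 7 for AD minus Het, 7 to 10 for RP minus Het, and 0 to 0 for AD minus Null, RP minus Null and AD minus RP. In basal thymus the ranges were 0 to 18 (Het minus Null), 0 to 10 (AD minus Null, both highest without Het-697) and 0 to 0 (AD minus Het). They were 0 to 0 in intestine, 0 to 4 in liver, 0 to 1 in pancreas; 0 to 0, 8 to 12 and 0 to 1 for irradiated minus basal Null, Het and AD; 1 to 3, 0 to 6 and 0 to 0 for the responses of Het against AD, Het against Null and AD against Null; 43 to 45, 41 to 42, 41 to 42 and 43 to 45 for liver, intestine, pancreas and thymus; and 0 to 4 by tissue. The numbers of all genes called in these runs are not given here, so the ranges cannot be set against them. Groups of 2 to 4 mice limit what can be called, as does depth for Acot1, Cpt1b and Ucp3, which lay at a few CPM or less in thymus.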
